A study of Mus musculus with 12 samples.

Results

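The 6 libraries described here are livers of ethanol-fed mice, 3 labelled as liver-specific knockouts of Sirt6 and 3 wild type, out of 12 libraries in the whole study. They were chosen by their labels alone, and all 13097 genes of the count table were considered. Every mouse was a C57BL/6 female aged 3 months. Ethanol feeding meant 10 days on a 5% Lieber-DeCarli diet, a liquid diet that carries the ethanol, followed by 1 binge of ethanol at 5 g/kg. The other 6 libraries, 3 labelled knockout and 3 wild type, came from pair-fed mice on an isocaloric control diet with a binge of maltose dextrin, and they serve here only as a second setting for the same contrast. Each library came from an individual mouse. The labels name no Cre driver and no deleted exons, and do not say whether wild type mice carried floxed alleles.

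SIRT6 is an NAD-dependent enzyme of the sirtuin family that removes acetyl groups from histone H3 on chromatin, and in liver it is known as a restraint on glycolytic and lipogenic genes. In the ethanol diet and binge model, hepatocytes oxidise ethanol through alcohol dehydrogenase and CYP2E1, and fat accumulates. Livers of mice also express many genes at sex-specific levels, set by the pattern of growth hormone secretion, and silence a group of fetal genes after birth.

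In the ethanol-fed mice the Sirt6 transcript itself did not go with the label. Reads on Sirt6 (chr10:81621786-81627608, mm10) numbered 67, 54 and 60 in ethanol-fed wild type mice 1, 2 and 3, and 53, 58 and 62 in those labelled knockout. The counts of both groups overlapped, and the log2 difference was 0.01 ± 0.25 (standard error, n = 3 mice a group, edgeR quasi-likelihood adjusted p = 0.997). Its sign changed with scaling by total counts, where the difference was -0.03. Loss of a few exons would lower a count over the whole gene only by their share of its reads, which is not known here. For this reason the 3 libraries are called labelled knockout, and each direction given below rests on that label.

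Total counts were 17305141 to 17967669 in the 6 ethanol-fed libraries. In a principal component analysis of these 6, the first component held 42.2% of the variance, and wild type mouse 3 lay at 53.3 on it, against -34.5 to 21.5 for the other libraries. The biological coefficient of variation was 0.248 in the ethanol-fed libraries and 0.115 in the pair-fed ones. Levels are CPM, the reads of a gene scaled to library size with TMM factors, and differences are log2 of the labelled knockout over wild type ± standard error, with n = 3 mice a group.

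Across 12694 genes tested, 45 were higher and 2 lower in the labelled knockout past an adjusted p of 0.05 (edgeR quasi-likelihood, Benjamini-Hochberg over all genes tested). This is 0.37% of the genes tested, with 0.354% higher and 0.0158% lower. Each of the 47 differed by at least 2-fold, and in each the 3 mice of one group all lay outside the range of the other. An absence of overlap alone was common, at 6.53% of all tested genes for higher and 6.2% for lower. The median log2 difference of all genes was -0.02. At an unadjusted p under 0.05 there were 999 genes (7.87%), 481 higher and 518 lower (3.79% and 4.08%). DESeq2 called 187 genes, 120 higher and 67 lower (0.945% and 0.528%), including all 47. Leaving out 1 mouse moved the count between 22 and 125, with 125 calls (67 higher and 58 lower) without wild type mouse 1, and 22 or 23 without wild type mouse 2 or labelled knockout mouse 2 or 3.

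Of the 47 genes, 18 passed in every setting tried, including each leave-out. These were H19, Igf2, Adgrv1, Apba2, Grid1, Tmprss4, Mup7, Mup12, Mup20, Cyp2d9, Serpina12, Nat8, Ly6f, Col5a3, Gm4794, D330045A20Rik, Nrp2 and Mme. The other 29 fell short of the threshold in at least 1 leave-out, with an adjusted p of at most 0.241, and none changed its direction. Most losses came without wild type mouse 2 (24 genes), labelled knockout mouse 2 (24) or labelled knockout mouse 3 (27), and 1 came without wild type mouse 1.

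**Figure D1:**
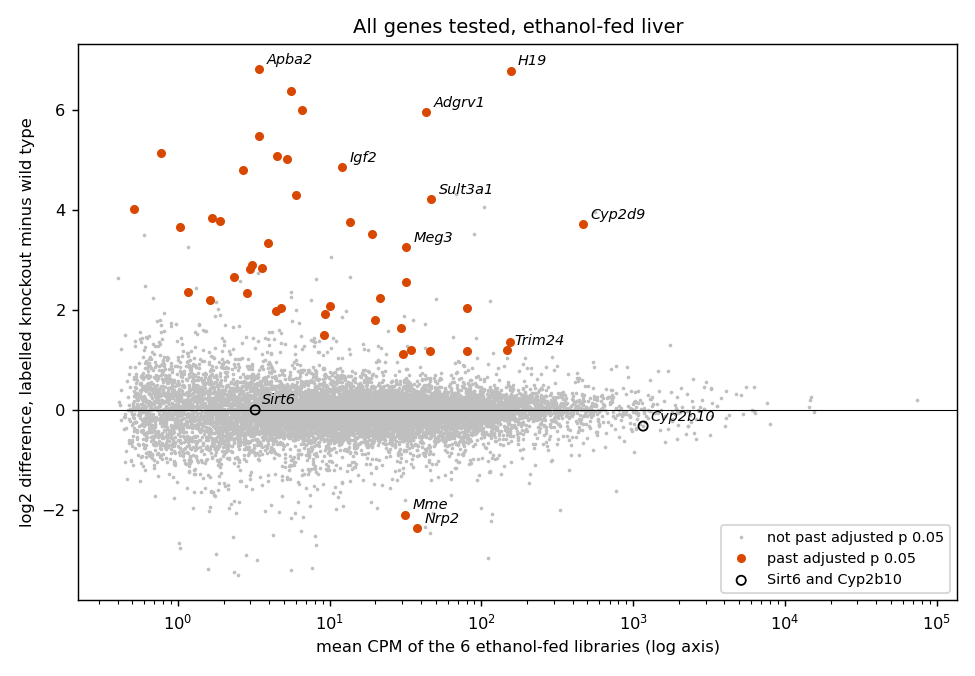
Each point is 1 of the 12694 tested genes, with its mean CPM over the 6 ethanol-fed libraries on the x axis (log scale) and its log2 difference, labelled knockout minus wild type, on the y axis. The 47 genes past an adjusted p of 0.05 are orange, 45 of them above 0 and 2 below, and open circles mark Sirt6 and Cyp2b10, both near 0.

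Of genes that the adult liver normally keeps silent, H19 and Igf2 stood out. H19 is a maternally expressed non-coding RNA and Igf2 the paternally expressed gene of a fetal growth factor, and they are neighbours within 86 kb on chromosome 7 (H19 at chr7:142575530-142578146 and Igf2 at chr7:142650768-142661035, mm10). H19 stood at 1.81, 5.02 and 1.54 CPM in the 3 wild type mice and at 404, 275 and 251 CPM in the 3 labelled knockout mice (log2 difference 6.80 ± 0.51, adjusted p = 0.000981). Igf2 stood at 0.828, 0.912 and 0.667 CPM in wild type and 31.2, 23.4 and 15.8 CPM in the labelled knockout (4.86 ± 0.33, adjusted p = 0.000497). In both genes the lowest labelled knockout mouse was well above the highest wild type mouse. Leaving out 1 mouse moved the log2 difference of H19 between 6.5 and 7.52, the latter without wild type mouse 2.

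Meg3, the maternally expressed non-coding RNA of the Dlk1-Dio3 domain on chromosome 12, rose as well. Its levels were 10.9, 3.99 and 3.08 CPM in wild type mice and 64.1, 51.9 and 57.1 CPM in labelled knockout mice (3.26 ± 0.44, adjusted p = 0.0212). Rian and Mirg, non-coding RNAs of the same domain, had similar values and did not pass edgeR's test of the 6 libraries. Rian stood at 4.87, 0.798 and 0.769 CPM against 19.6, 14.8 and 20.4 CPM (3.07 ± 0.63, adjusted p = 0.148), and Mirg had a log2 difference of 3.51 ± 0.70 (adjusted p = 0.123). Both passed with DESeq2 (adjusted p = 0.0244 for Rian and 0.00540 for Mirg) and in the fit over all 12 libraries (0.0198 and 0.0130), and Rian also with limma-voom (0.0351). Without wild type mouse 1, the highest of its group in both Meg3 and Rian, the log2 difference of Meg3 was 4.02 and that of Rian 4.52 (adjusted p = 9.73e-05). The lowest value of Meg3 without 1 mouse was 2.95. Meg3 fell short of the threshold in 3 of 14 settings, with an edgeR adjusted p of at most 0.147. Whether the counting used strand is unknown here, and reads of overlapping and antisense transcripts in this domain cannot be told apart.

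Of 16 tested imprinted and fetal liver genes 3 rose and 0 fell, beside 0.354% and 0.0158% of all genes. Their median log2 difference was 0.41. DESeq2 and the 12-library fit each called 5 higher, beside 0.945% of all genes with DESeq2 and 99 of 13097 genes in the 12-library fit. The fetal hepatocyte protein Afp had a log2 difference of 0.38 ± 0.22 (adjusted p = 0.700) and the oncofetal proteoglycan Gpc3 of 0.62 ± 0.41 (adjusted p = 0.726). Neither gene was called by DESeq2.

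Major urinary proteins are pheromone carriers of the lipocalin family that the liver secretes, mostly in males. The list held 21 Mup genes, of which 10 were in the count table and 8 were tested. Of these 8 tested Mup genes 5 rose and 0 fell, beside 0.354% and 0.0158% of all genes, with a median log2 difference of 3.63. Mup1, Mup7, Mup12 and Mup21 had few wild type reads and passed the count filter through the labelled knockout mice. The number and the median therefore depend in part on the group where these genes are high. Without wild type mouse 2 or 3 the number was 3. Mup7 stood at 0.311, 0.0570 and 0.0513 CPM in wild type mice and 9.39, 4.43 and 6.18 CPM in labelled knockout mice (5.49 ± 0.57, adjusted p = 0.00516). Mup12 stood at 0.518, 0.114 and 0.103 CPM against 9.04, 5.69 and 11.3 CPM (5.09 ± 0.54, adjusted p = 0.00573). Mup20, which encodes the male pheromone darcin, stood at 6.52, 9.12 and 6.82 CPM against 30.3, 32.8 and 43.5 CPM (2.24 ± 0.22, adjusted p = 0.00312). None of these groups overlapped, and the wild type libraries held only a handful of Mup7 and Mup12 reads. Leaving out 1 mouse moved the log2 difference of Mup7 between 5.09 and 6.77 and that of Mup12 between 4.71 and 6.23. The upper values came without wild type mouse 1.

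Mup21 ranged more widely among labelled knockout mice. Its levels there were 6.99, 4.54 and 18.8 CPM, against 0.259, 0.285 and 0.359 CPM in wild type (5.02 ± 0.63, adjusted p = 0.0153). Without labelled knockout mouse 3 its log2 difference was 4.23. For Mup1, wild type mice had 2 reads in all and labelled knockout mice 79, a ratio of 41.3 with a 95% interval of 11.1 to 347 that covers counting error only (adjusted p = 0.0475). Mup3 did not pass the test, with a log2 difference of 0.25 ± 0.29 (adjusted p = 0.848). Copies of this family are near-identical, so reads may be shared between them and single Mup genes are uncertain.

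The 250 bases before the start of Mup7, Mup21 and Sult3a1 are shown because ATCAAT, the core letters of sites bound by the liver factor HNF6, occurs in them. The sequences are from RefSeq on GRCm38.p6 (mm10), which had an entry for 32 of the 47 called genes. Each runs 5′ to 3′ on the strand of the gene, with ATCAAT or its reverse complement ATTGAT in capitals. Mup7 lies on the minus strand (chr4:60070476-60070725), Mup21 on the minus strand (chr4:62150842-62151091) and Sult3a1 on the plus strand (chr10:33857472-33857721).
Mup7: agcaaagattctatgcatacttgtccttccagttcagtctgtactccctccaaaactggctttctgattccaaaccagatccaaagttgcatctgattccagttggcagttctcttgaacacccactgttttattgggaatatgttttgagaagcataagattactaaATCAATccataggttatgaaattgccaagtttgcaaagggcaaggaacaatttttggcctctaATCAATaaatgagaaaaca
Mup21: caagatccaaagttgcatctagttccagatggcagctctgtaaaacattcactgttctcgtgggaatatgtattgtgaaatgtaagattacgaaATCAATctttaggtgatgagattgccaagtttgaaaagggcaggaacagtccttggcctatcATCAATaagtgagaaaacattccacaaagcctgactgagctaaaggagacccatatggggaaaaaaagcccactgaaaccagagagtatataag
Sult3a1: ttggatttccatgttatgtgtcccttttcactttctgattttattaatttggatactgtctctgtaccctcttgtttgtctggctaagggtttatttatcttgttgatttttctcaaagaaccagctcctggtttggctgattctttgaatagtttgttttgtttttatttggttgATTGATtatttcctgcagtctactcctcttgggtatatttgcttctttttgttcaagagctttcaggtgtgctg

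Mup7 and Mup21 each held 2 matches to ATCAAT, and Sult3a1 held 1. On both strands the motif was found in 6.72% of all 32851 windows of this length and in 3.81% of the 12419 windows of tested genes. It was in 5 of 43 windows of called genes (11.6%), the others being those of Cyp2c67 and Unc13b. Mup7 and Mup21 are of the same gene family, so the 5 windows are not independent, and the shares were not tested. The letters TTCNNNGAA, the palindrome of STAT5 sites, were found in 7.02% of all windows and 6.15% of tested ones. They were in 4 of the 43 windows of called genes (9.3%), which were those of Sult3a1, Itga10, Mme and D330045A20Rik. The 2 motifs did not share bases in the Sult3a1 window, and a match of letters does not show a bound site.

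Beyond the Mup genes, other genes known for higher levels in male mouse liver rose. The list of male-biased genes had 17 tested members, of which 5 rose and 0 fell, beside 0.354% and 0.0158% of all genes. Their median log2 difference was 0.90. Mup21, among the 5, passed the count filter through the labelled knockout mice, so the number and the median depend in part on them. The number called higher was 3 without wild type mouse 2 and with limma-voom. It was 8 with DESeq2, beside 0.945% of all genes, and 9 over all 12 libraries, beside 99 of 13097 genes. Cyp2d9, a testosterone hydroxylase of male mouse liver, stood at 91.3, 53.2 and 52.6 CPM in wild type mice and 916, 844 and 853 CPM in labelled knockout mice (3.72 ± 0.26, adjusted p = 0.000497). The labelled knockout mice lay close together, and all were far above the highest wild type mouse. Nat8, an N-acetyltransferase, had a log2 difference of 2.91 ± 0.33 (adjusted p = 0.00641), and the selenium-binding protein gene Selenbp2 of 1.99 ± 0.31 (adjusted p = 0.0412). Mup20 and Mup21 are the remaining called members of this list. Serpina1e, a male-biased antitrypsin copy, was at 158, 38.1 and 6.67 CPM in wild type and 1046, 865 and 1260 CPM in the labelled knockout (3.96 ± 0.93, adjusted p = 0.222). Its groups did not overlap, and the wild type values were spread widely. Serpina1e passed with DESeq2 (adjusted p = 0.00744) and over all 12 libraries (adjusted p = 0.0425).

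Of male-biased genes that did not pass, Elovl3, an elongase of long fatty acids, stood at 3.06, 4.85 and 2.87 CPM in wild type and 5.97, 3.06 and 4.62 CPM in the labelled knockout, so that the groups overlapped (0.34 ± 0.33, adjusted p = 0.813). Gstp1, a glutathione transferase whose copies share reads, had a log2 difference of 0.90 ± 0.22 (adjusted p = 0.256), and it passed with DESeq2 (adjusted p = 0.0230) and over all 12 libraries (adjusted p = 0.0349).

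Female-biased genes lay on both sides of 0, with 13 positive and 11 negative log2 differences and a median of 0.06. Of these 24 tested genes 2 rose and 0 fell, beside 0.354% and 0.0158% of all genes. Their log2 differences ranged from -2.33 to 4.23. At an unadjusted p under 0.05 there were 6 higher and 4 lower, beside 3.79% and 4.08% of all genes. DESeq2 called 3 higher and 0 lower, beside 0.945% and 0.528% of all genes. Sult3a1, a sulfotransferase of female mouse liver, stood at 8.44, 2.22 and 3.49 CPM in wild type and 90.3, 81.3 and 95.5 CPM in the labelled knockout (4.23 ± 0.45, adjusted p = 0.00641). Its neighbour Gm4794, which RefSeq names Sult3a2, stood at 0.311, 0 and 0.0513 CPM against 9.86, 10.7 and 12.5 CPM (6.39 ± 0.57, adjusted p = 0.002). The list holds that gene under its RefSeq symbol, so it is not among the 24. Without wild type mouse 1, which held 6 of the 7 wild type reads of Gm4794, the log2 differences of Sult3a1 and Gm4794 were 4.95 and 8.34. Their lowest values without 1 mouse were 3.89 and 5.87. Sult3a1 fell short of the threshold in 1 of 14 settings (edgeR adjusted p = 0.0564). Trim24, a transcriptional co-regulator that binds nuclear receptors, was the other called member (1.20 ± 0.18, adjusted p = 0.0332). Sult1e1, also of this list, had a log2 difference of 1.29 (edgeR adjusted p = 0.133) and passed with DESeq2 (adjusted p = 0.0016). The female-specific Cyp2b9 and Cyp2b13 had log2 differences of 0.13 ± 0.18 and 0.75 ± 0.46 (adjusted p = 0.867 and 0.708).

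Further enzymes of drug and steroid metabolism rose. The hydroxysteroid sulfotransferase Sult2a7 stood at 3.57, 1.08 and 0.821 CPM in wild type and 24.1, 16.9 and 35.1 CPM in the labelled knockout (3.78 ± 0.54, adjusted p = 0.0301). Cyp2d12, a second Cyp2d gene, stood at 0.311, 0.0570 and 0.256 CPM against 3.27, 3.28 and 2.87 CPM (3.85 ± 0.45, adjusted p = 0.00848). Cyp2d12 and Cyp2d9 were the 2 of 8 tested Cyp2d genes that rose, beside 0.354% of all genes. Cyp2d12 passed the count filter through the labelled knockout mice, so this number depends in part on them. Sult2a7 and Sult3a1 were the 2 of 15 sulfotransferases that rose, and DESeq2 called 4 of the 15 higher, beside 0.945% of all genes. Leaving out 1 mouse moved the log2 difference of Sult2a7 between 3.42 and 4.72, the latter without wild type mouse 1. Sult2a7 fell short of the threshold in 5 of 14 settings, with an edgeR adjusted p of at most 0.203. The liver-abundant Cyp2d10 and Cyp2d26 had log2 differences of 0.13 ± 0.17 and 0.00 ± 0.18. The median was 0.13 over the Cyp2d genes and -0.05 over the sulfotransferases.

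Of 36 tested PPARA targets and genes of fat oxidation, with a median of 0.27, 1 was called higher, beside 0.354% of all genes. This was Cyp4a31, of a family of fatty acid hydroxylases induced through PPARA, which rose by 2.57 ± 0.33. Its relative Cyp4a14 had a log2 difference of 1.30 ± 0.36 (adjusted p = 0.331, and 0.0169 with DESeq2). Cyp2c67 rose by 2.06 ± 0.31 and the glucuronosyltransferase Ugt1a9 by 1.37 ± 0.21. The ABC transporter gene Abcc12 rose by 2.84 ± 0.36 and Cml5, an acetyltransferase gene beside Nat8 that RefSeq names Nat8f5, by 2.67 ± 0.43. Cyp2d, Cyp2c, Cyp4a and Sult copies resemble each other, and the Ugt1a genes share exons, so the share of each copy in these reads is uncertain.

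In the cluster of serine protease inhibitors on chromosome 12, 2 of 15 tested genes rose, beside 0.354% of all genes, and the median was 0.27. Serpina4-ps1, among the 2, passed the count filter through the labelled knockout mice, so this number depends in part on them. Serpina12, which encodes the adipokine vaspin, stood at 3.94, 2.22 and 2.87 CPM in wild type and 30.6, 39.0 and 35.9 CPM in the labelled knockout (3.54 ± 0.25, adjusted p = 0.000497). Serpina4-ps1, a pseudogene by its name, stood at 0.518, 0 and 0.0513 CPM against 15.9, 13.1 and 9.98 CPM (6.02 ± 0.68, adjusted p = 0.00848). Wild type mouse 1 held 10 of its 11 wild type reads, and without that mouse the log2 difference of Serpina4-ps1 was 8.59. The lowest value without 1 mouse was 5.48, and Serpina4-ps1 fell short of the threshold in 1 of 14 settings (edgeR adjusted p = 0.0554). Both are neighbours within 58 kb, and neither overlapped between groups.

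Adgrv1, a very large adhesion receptor of inner ear hair cells, stood at 0.932, 0.912 and 2.21 CPM in wild type and 106, 65.7 and 84.0 CPM in the labelled knockout (5.96 ± 0.39, adjusted p = 0.000497). Apba2, a neuronal adaptor that binds the amyloid precursor protein, had 1, 0 and 2 reads in wild type mice and 152, 118 and 99 in labelled knockout mice. The ratio of its CPM was 129, with a 95% interval of 43.7 to 627 for counting error only (adjusted p = 0.000497). Grid1, a glutamate receptor subunit of the delta type, stood at 0.414, 0.912 and 0.769 CPM against 6.69, 7.003 and 7.80 CPM (3.35 ± 0.32, adjusted p = 0.00279). In these 3 genes all labelled knockout mice lay far above wild type, and those of Grid1 lay close together.

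Unc13b, which primes synaptic vesicles for release, rose by 1.92 ± 0.28, Sema5b, a semaphorin that guides axons, by 2.36 ± 0.35, and Impg2, a proteoglycan of the photoreceptor matrix, by 1.51 ± 0.24. Cox6b2, the testis form of a cytochrome oxidase subunit, stood at 0.104, 0.171 and 0.154 CPM in wild type and 1.17, 2.19 and 2.37 CPM in the labelled knockout (3.68 ± 0.48, adjusted p = 0.0162). Myom1, a protein of the sarcomere M band, rose by 2.04 ± 0.31. Mia, a small secreted protein of cartilage, had 3 reads over the wild type mice and 52 over the labelled knockout mice, a ratio of 18.1 with an interval of 5.87 to 90.7 (adjusted p = 0.0449). D330045A20Rik on chromosome X, which RefSeq names Radx and which encodes a protein that binds single-stranded DNA at replication forks, rose by 4.81 ± 0.44.

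Tmprss4, a membrane-bound serine protease, stood at 0.673, 0.513 and 0.513 CPM in wild type and 13.3, 11.1 and 9.73 CPM in the labelled knockout (4.31 ± 0.28, adjusted p = 0.000497). Itga10, a collagen-binding integrin chain, stood at 0.828, 0.969 and 0.769 CPM against 2.81, 7.06 and 8.92 CPM (2.85 ± 0.45, adjusted p = 0.0400), with labelled knockout mouse 1 lowest of its group and still above wild type. The junction protein gene Marveld3 rose by 2.34 ± 0.35, the integrin activator gene Fermt1 by 2.21 ± 0.36 and the tetraspanin gene Cd9 by 1.64 ± 0.20. Col5a3, a chain of type V collagen, rose by 2.09 ± 0.23. It was the single called member of 28 tested collagen and matrix genes, beside 0.354% of all genes called higher. The median of the 28 was 0.39. Col1a1, the main collagen chain of scar tissue, stood at 17.0, 13 and 14.3 CPM against 41.6, 43.3 and 12.5 CPM, so that the groups overlapped. Without labelled knockout mouse 3 Col1a1 passed, with a log2 difference of 1.53 (adjusted p = 0.0385).

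Of 5 tested Ly6 genes, which encode small anchored surface proteins, 2 rose and 0 fell, beside 0.354% and 0.0158% of all genes. Their median was 1.61. Ly6f, among the 2, passed the count filter through the labelled knockout mice, so the number and the median depend in part on them. Ly6f stood at 0.259, 0.285 and 0.205 CPM in wild type and 4.09, 4.38 and 2.18 CPM in the labelled knockout (3.80 ± 0.42, adjusted p = 0.00641). Ly6a, which encodes the stem cell antigen Sca-1, stood at 8.91, 7.47 and 10.1 CPM against 38.9, 23.1 and 31.7 CPM (1.82 ± 0.23, adjusted p = 0.0147). The stretch of chromosome 15 that holds both also holds the called gene 9030619P08Rik (1.18 ± 0.16). Ly6d, a surface protein of the same family, had a log2 difference of 1.61 ± 0.33 (adjusted p = 0.136), and its groups did not overlap. Ly6d passed with DESeq2 (adjusted p = 0.00105), over all 12 libraries (0.0122) and without wild type mouse 3 (0.0379).

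Further called rises were modest in size. The actin-severing protein gene Gsn rose by 1.13 ± 0.15. Ifi27, an interferon-inducible gene, stood at 28.5, 27.3 and 27.8 CPM in wild type and 61.7, 61.2 and 67.7 CPM in the labelled knockout (1.18 ± 0.15, adjusted p = 0.0147).

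Only Nrp2 and Mme were called lower. Nrp2, a co-receptor for semaphorins and vascular growth factors, stood at 69.9, 54.4 and 65.2 CPM in wild type and 13.1, 13.6 and 10.5 CPM in the labelled knockout (-2.35 ± 0.19, adjusted p = 0.000981). Mme, the membrane peptidase neprilysin, stood at 47.8, 55.4 and 48.8 CPM against 11.2, 13.8 and 10.9 CPM (-2.08 ± 0.18, adjusted p = 0.00128). The 3 mice of each group lay close together in both genes. The number of lower calls was 49 in the fit over all 12 libraries.

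**Figure D2:**
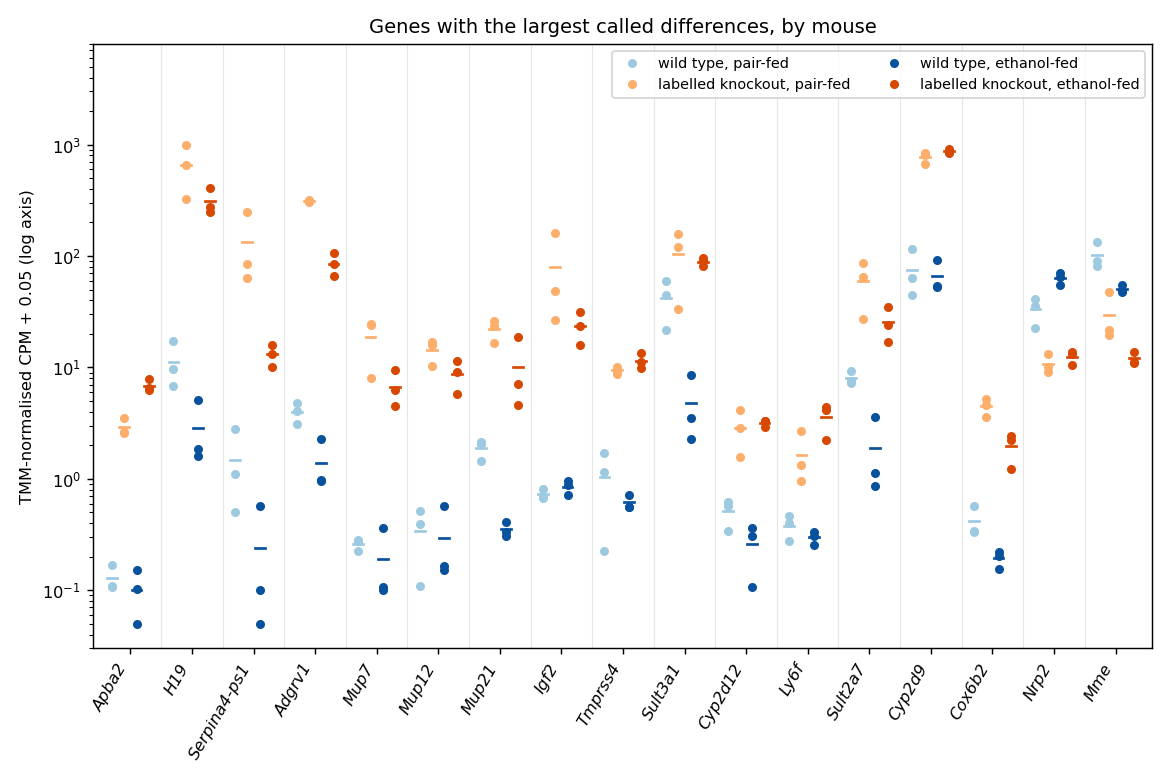
TMM-normalised CPM plus 0.05 (log axis) of 17 called genes in each of the 12 mice, with 1 point a mouse and a bar at the group mean, for wild type and labelled knockout under both diets. In all 17 genes the dark orange points (labelled knockout, ethanol-fed) and the dark blue points (wild type, ethanol-fed) do not overlap. The rule that chose these genes required this. For Nrp2 and Mme the order is inverted.

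The same contrast in the 6 pair-fed mice, which share no library with the ethanol-fed ones, gave the same sign for each of the 46 called genes that could be tested there. Mia had too few reads for that fit. Of 12625 genes tested in pair-fed mice 481 passed (3.81%), 266 higher and 215 lower (2.11% and 1.7%). That count was 114 in the 12-library fit, and 200, 247, 271 and 278 without labelled knockout mouse 2, labelled knockout mouse 3, wild type mouse 2 and wild type mouse 1. Of the 47 ethanol-fed calls 31 were also called when pair-fed, all in the same direction, which is 66% of the ethanol-fed and 6.44% of the pair-fed calls. Of 468 pair-fed calls tested in ethanol-fed mice, 86.5% had the same sign there, against 61.1% over all genes tested in both. Of 18 male-biased genes tested when pair-fed, 10 were called higher and 2 lower, with a median of 1.25. Of 10 Mup genes 5 were called higher and 0 lower, with a median of 4.23. Called higher were also 3 of 16 imprinted and fetal liver genes and 3 of 5 Ly6 genes, with 0 lower. The shares over all genes were 2.11% higher and 1.7% lower.

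Adgrv1 was at 3.08, 4.03 and 4.74 CPM in pair-fed wild type mice and 312, 316 and 303 CPM in pair-fed labelled knockout mice, a log2 difference of 6.30 ± 0.14 beside 5.96 ± 0.39 under ethanol. Igf2 was at 48.2, 162 and 26.5 CPM in the pair-fed labelled knockout, a wide range, and did not pass there (6.86 ± 1.20, adjusted p = 0.0671). Serpina4-ps1 was at 84.4, 62.9 and 251 CPM in the pair-fed labelled knockout, all above its ethanol-fed values.

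Among the 16 genes called in ethanol-fed mice alone, several had small differences when pair-fed. Itga10 had a pair-fed log2 difference of 0.10 ± 0.28 beside 2.85 ± 0.45 under ethanol, Ifi27 of 0.42 ± 0.18 beside 1.18 ± 0.15 and Myom1 of 0.43 ± 0.27 beside 2.04 ± 0.31. Sult3a1 was at 21.8, 59.3 and 45.1 CPM in pair-fed wild type mice and 122, 33.6 and 158 CPM in pair-fed labelled knockout mice, which overlapped (1.32 ± 0.72, adjusted p = 0.430). The test of the difference between diets, fitted over all 12 libraries, called none of the 47 genes. Its smallest adjusted p among them was 0.465, for Itga10 (2.76 ± 0.56). At an unadjusted p under 0.05 there were 11 of the 47, against 5.31% of all 13097 genes. The 47 were chosen by their ethanol-fed difference, which is part of this test, so their share beside that of all genes does not measure an effect of diet. DESeq2 called Itga10 alone of the 47 in that test.

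**Figure D3:**
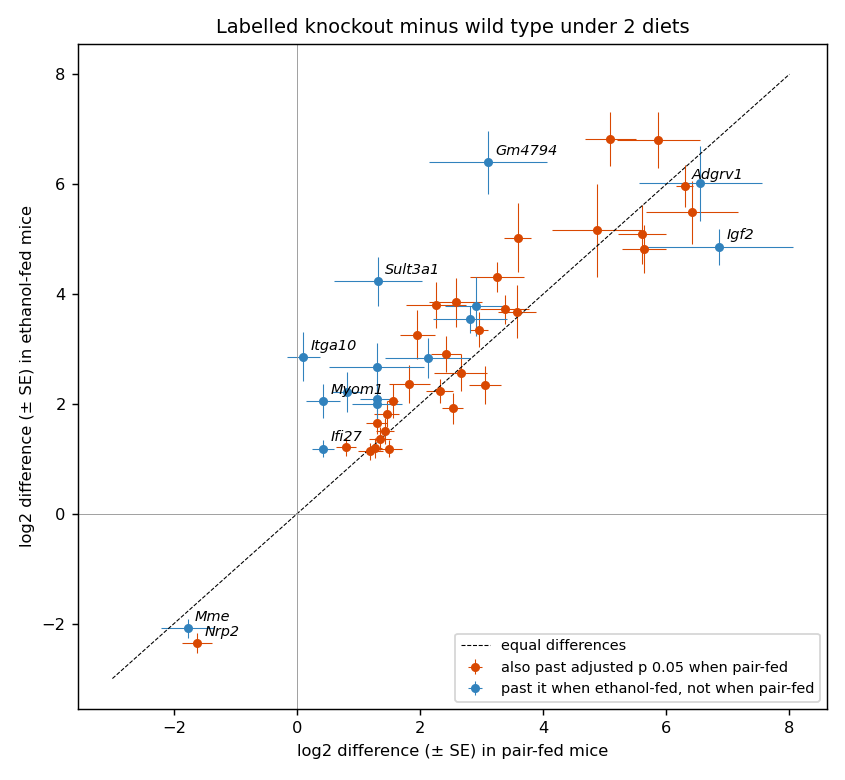
Log2 difference, labelled knockout minus wild type, with its standard error, in pair-fed mice (x axis) and ethanol-fed mice (y axis) for the 46 called genes tested under both diets. Orange points (31 genes) passed an adjusted p of 0.05 under both diets and blue points only when ethanol-fed, and the dashed line marks equal differences.

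In edgeR's test of whether the difference between labels itself differed by diet, Cyp2b10 was the 1 gene called of 13097 (0.00764%), while DESeq2 called 15 genes, 5 higher and 10 lower. It encodes a P450 induced through the constitutive androstane receptor, a sensor of drugs. In pair-fed mice it stood at 8.55, 8.18 and 7.60 CPM in wild type and 79.5, 53.4 and 60.5 CPM in the labelled knockout (2.99 ± 0.15, adjusted p = 9.77e-06). In ethanol-fed mice it stood at 1134, 1255 and 1473 CPM in wild type and 1226, 924 and 968 CPM in the labelled knockout, and the groups overlapped (-0.31 ± 0.19, adjusted p = 0.710). The difference of differences was -3.30 ± 0.25 (adjusted p = 7.44e-05). Without ethanol-fed wild type mouse 1 edgeR's test called 20 genes, and 2 without ethanol-fed wild type mouse 3 or labelled knockout mouse 1. Of 29 tested receptors and targets of the drug-sensing receptors CAR and PXR, edgeR called 0 in ethanol-fed mice, with a median of -0.17. At an unadjusted p under 0.05 there were 2 higher and 4 lower, beside 3.79% and 4.08% of all genes. DESeq2 called 2 higher, beside 0.945% of all genes.

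The lists of liver pathways had few called members. Of 60 lists with 1080 tested genes, 10 held at least 1 called gene and 50 held none, and 26 of the 47 called genes were in no list. None of the 7 sirtuins passed, with log2 differences from -0.19 ± 0.17 for Sirt1 to 0.38 ± 0.23 for Sirt4. None of 26 genes of Hif1a and glycolysis, 23 of fatty acid synthesis, 30 of cholesterol synthesis, 19 of gluconeogenesis or 15 of alcohol and acetaldehyde metabolism passed either, and their medians lay between -0.16 and 0.08. DESeq2 called 0 in these lists and among the sirtuins. At an unadjusted p under 0.05 there were 1 to 3 members of each metabolic list and 0 sirtuins, beside 7.87% of all genes. Hif1a itself had a log2 difference of -0.15 ± 0.19, the lipogenic factor Srebf1 of -0.54 ± 0.34 and the ethanol-oxidising Cyp2e1 of 0.30 ± 0.24, all with an adjusted p of 0.718 or higher. In pair-fed mice edgeR called lower 2 of 7 sirtuins, 3 of 23 fatty acid synthesis genes and 4 of 30 cholesterol synthesis genes, beside 1.7% of all genes. The pair-fed medians of the last 2 lists were -0.42 and -0.39. Of the 26 genes of Hif1a and glycolysis 3 were called lower and 1 higher there, and of the 15 of alcohol and acetaldehyde metabolism 1 higher. Missing the threshold does not show that the groups were alike.

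**Figure D4:**
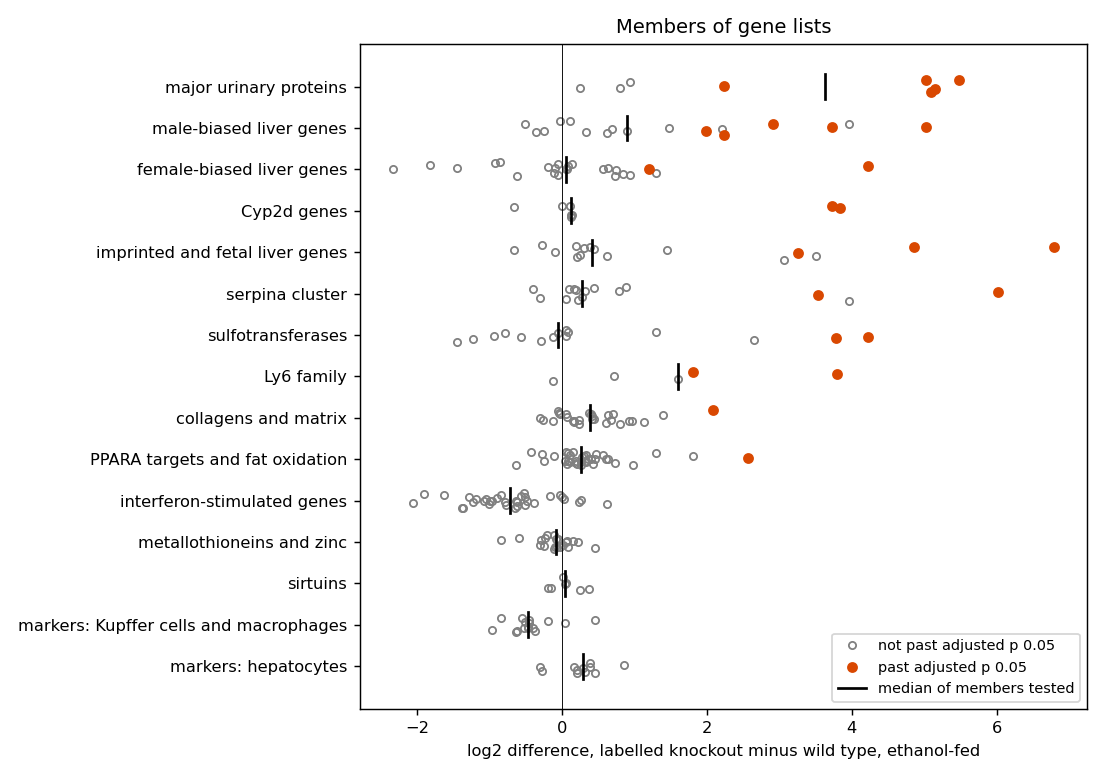
Log2 difference, labelled knockout minus wild type, in ethanol-fed mice for the tested members of 15 gene lists, with 1 point a gene and a bar at the median. Filled orange points passed an adjusted p of 0.05, among them 5 of 8 major urinary protein genes and 5 of 17 male-biased genes, whereas 0 of 34 interferon-stimulated genes did. Of all tested genes 0.354% passed higher and 0.0158% lower.

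Stress genes varied widely among the ethanol-fed wild type mice. Atf3, a stress-induced transcription factor, stood at 39.6, 254 and 600 CPM in wild type and 152, 55.0 and 162 CPM in the labelled knockout (-1.28 ± 0.79, adjusted p = 0.710). Gadd45a, a growth arrest gene, stood at 33.8, 165 and 391 CPM against 31.5, 14.8 and 30.8 CPM (-2.94 ± 0.75, adjusted p = 0.293), and without wild type mouse 1 Gadd45a passed (-3.44, adjusted p = 0.0160). Myc, a growth transcription factor, stood at 47.8, 121 and 404 CPM against 58.9, 31.9 and 33.6 CPM (-2.21 ± 0.68, adjusted p = 0.402). In each of these genes wild type mouse 3 was the highest of the 6. The metallothionein Mt2, which binds zinc, stood at 450, 1846 and 1573 CPM in wild type and 918, 292 and 966 CPM in the labelled knockout (-0.84 ± 0.56, adjusted p = 0.727), with overlap between the groups. Of 21 metallothionein and zinc genes and 24 genes of the ATF4 and CHOP response, edgeR called 0, with medians of -0.08 and -0.38. At an unadjusted p under 0.05 the former list had 0 genes and the latter 1 higher and 4 lower, of which DESeq2 called 2. Over all genes the shares at that p were 3.79% higher and 4.08% lower, and DESeq2 called 0.528% lower.

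Interferon-stimulated genes, which carry the antiviral response, had mostly negative log2 differences, and no single gene passed edgeR's test of the 6 libraries. Ifi27, called higher above, is not in the list. Of 34 tested 0 were called, and 24 had an unadjusted p under 0.05 in the lower direction, beside 4.08% of all genes and beside 1 in the higher direction. Their median log2 difference was -0.71, against -0.02 over all genes and -0.07 for the same 34 in pair-fed mice. In pair-fed mice edgeR called 3 of the 34 lower and 1 higher, beside 1.7% and 2.11% of all genes. In the ethanol-fed contrast the other procedures called few. DESeq2 and the fit over all 12 libraries each called 2 of the 34 lower there. Without wild type mouse 3 the number at an unadjusted p under 0.05 was 13 and the median -0.58. These genes can move together, so their number is not a number of independent results.

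Ifit1, an inhibitor of viral translation, stood at 6.47, 15.7 and 35.6 CPM in wild type and 5.67, 5.69 and 4.05 CPM in the labelled knockout (-1.91 ± 0.54, adjusted p = 0.348). Igtp, an immunity-related GTPase, stood at 29.6, 33.1 and 46.9 CPM against 22.1, 18.5 and 18.5 CPM (-0.90 ± 0.21, adjusted p = 0.207), and Igtp passed with DESeq2 (adjusted p = 0.0284) and over all 12 libraries (0.0495). In both genes the groups did not overlap and wild type mouse 3 was highest. That mouse was the highest of the 6 ethanol-fed mice in 23 of the 34 genes. The median deviation from each gene's mean over the 12 mice was 0.04, 0.26 and 0.60 in wild type mice 1, 2 and 3, and -0.28, -0.24 and -0.24 in the labelled knockout mice, on the log2 scale.

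**Figure D5:**
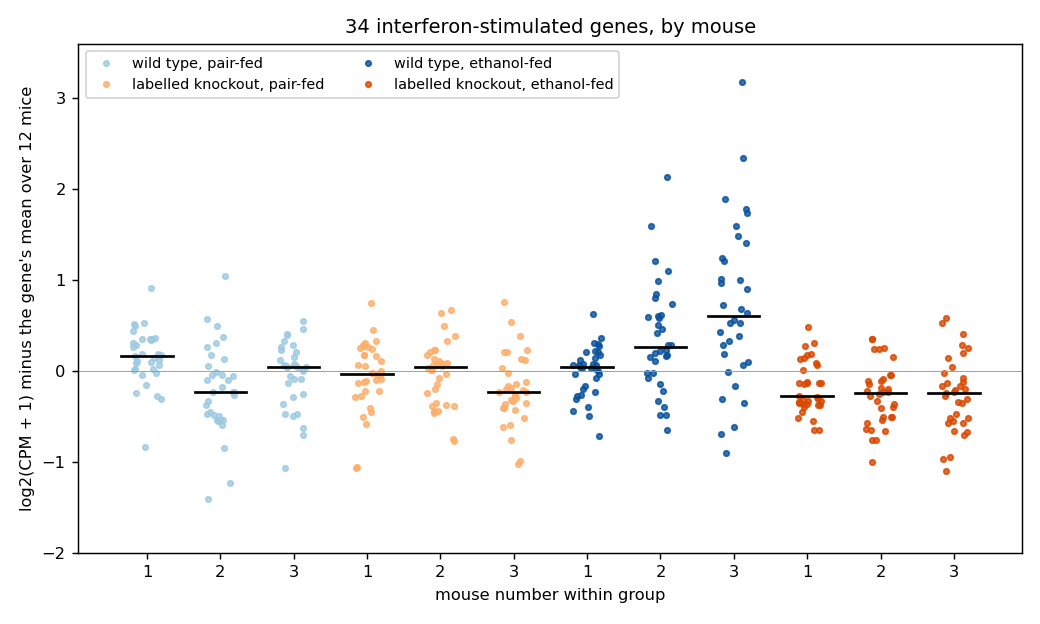
Log2 of CPM plus 1 of 34 interferon-stimulated genes, minus each gene's mean over the 12 mice, with 1 point a gene and a bar at the median of each mouse. The medians of the ethanol-fed wild type mice are 0.04, 0.26 and 0.60, and those of the ethanol-fed labelled knockout mice are -0.28, -0.24 and -0.24.

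Markers of Kupffer cells and macrophages lay on the same side in ethanol-fed mice. Of 16 tested 14 had a negative and 2 a positive log2 difference, and edgeR and DESeq2 called 0. At an unadjusted p under 0.05 there was 1 lower, beside 4.08% of all genes, and the median of the markers was -0.47. Their summed level was 444 to 1027 CPM in wild type and 520 to 657 CPM in the labelled knockout, so that the ranges overlapped. The lysosomal macrophage marker Cd68 stood at 17.9, 11.9 and 12.9 CPM against 9.29, 7.33 and 7.24 CPM (-0.84 ± 0.23, adjusted p = 0.326). All 5 tested markers of neutrophils and monocytes and all 8 tested MHC class II genes had negative log2 differences too, with a median of -0.33 in each list, 0 called by edgeR or DESeq2 and 0 at an unadjusted p under 0.05. The neutrophil and monocyte markers summed to 26.2 to 60.5 CPM in wild type and 27.7 to 36.5 CPM in the labelled knockout, which overlapped, and the other 9 genes of that list were not tested. In pair-fed mice the medians had the opposite sign. They were 0.43 for Kupffer cells and macrophages, 0.54 for 4 neutrophil and monocyte markers and 0.27 for MHC class II. Of the 16 Kupffer cell and macrophage markers 2 were called higher there and 0 lower, beside 2.11% and 1.7% of all genes. The part of these cells in the interferon-stimulated values was not tested. In whole liver, fewer cells of a type and less RNA per cell cannot be told apart.

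Other marker lists had no member called by edgeR, and DESeq2 called higher 1 cholangiocyte marker, Krt19, and 1 of the muscle, pancreas and fat list, Cela1. Hepatocyte markers, with Alb among them, summed to 101700 to 140500 CPM in wild type and 96100 to 165000 CPM in the labelled knockout, with a median difference of 0.30, and their high level goes with the labelled tissue. Cholangiocyte markers summed to 65.1 to 160 CPM in wild type and 86.8 to 144 CPM in the labelled knockout, and their median difference was 0.71 over 8 genes. Krt19, a keratin of bile ducts, stood at 1.24, 1.20 and 1.13 CPM against 3.37, 6.07 and 2.12 CPM (1.69 ± 0.41, adjusted p = 0.224). Stellate cell and endothelial markers had medians of 0.09 each. T and NK cell markers summed to 6.97 to 9.63 CPM in wild type and 5.69 to 7.66 CPM in the labelled knockout, and no marker in the table was listed at 0 in any library.

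Some of the called genes lay side by side on their chromosomes. Of the 47, 16 lay in 7 runs of tested neighbours that were both or all called, and 19 had another called gene within 1 Mb. The runs were Mup7, Mup1 and Mup12 over 675 kb of chromosome 4, Ly6a, Ly6f and 9030619P08Rik over 437 kb of chromosome 15, and the pairs H19 and Igf2, Sult3a1 and Gm4794, Serpina12 and Serpina4-ps1, Cyp2d9 and Cyp2d12, and Nat8 and Cml5. Most of these are members of one gene family that lie side by side. Chromosome 4 held 8 called of 787 tested genes (1.02%) and chromosome 15 held 5 of 507 (0.986%), against 0.37% overall. Within 10 Mb of Sirt6 on chromosome 10, 206 genes were tested and edgeR called 0, with 14 at an unadjusted p under 0.05 (7.87% over all genes) and 1 called by DESeq2.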

How the data were processed

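The authors deposited 1 table of read counts per gene and library, raw per the file headers, for liver RNA of 12 mice in 4 groups of 3. Per the submitters' processing notes, STAR 2.5, featureCounts of Subread 1.5.3 and edgeR 3.20.8 were used, on mm10. Annotation and strand mode were both not given in the sources used here. Deposited gene lengths are of another kind and were not tested, and the authors' own fold changes were not used.

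Counts were TMM-scaled, and robust quasi-likelihood models of edgeR 4.0.16 (R 4.3.3) were fitted on the 6 libraries of one diet (4 residual degrees of freedom), after filterByExpr. The 6-library fit was chosen because the spread differed by diet, and the interaction was fitted over all 12 libraries (8 residual degrees of freedom). P-values were adjusted by Benjamini-Hochberg over all genes tested, with a threshold of 0.05. CPM are TMM-scaled over 12 libraries. Standard errors are the difference over the square root of F. DESeq2 1.42.0 and limma-voom (limma 3.58.1) served as alternatives. Only the edgeR fits, of the ethanol-fed, pair-fed and interaction contrasts, were tried on simulated data, and the alternatives were not. Total counts of 17305141 to 18279809 per library set the precision, and a gene with 3 or fewer reads over the wild type group is given as a ratio with an exact conditional interval. Libraries within a group differed by more than sampling noise (a chi-square of at least 54.8 per degree of freedom in ethanol-fed groups), and each counts as 1 mouse.

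The genes and the 60 lists were chosen with earlier results of these data known. Genes were named from up to 15 rises and 15 falls with a mean of at least 1 CPM and no overlap, leaving out clone names, from the 3 smallest p-values in each list, and from a list named in advance. Further called genes, clone names included, were chosen after their values were seen. A few genes are left out of the text.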

Additional observations from a re-analysis of the deposited data

Results flagged for a closer look

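Cyp2b10 differed between diets by a test of the difference itself. The difference of its log2 differences, ethanol-fed minus pair-fed, was -3.30 ± 0.25 (edgeR quasi-likelihood adjusted p = 7.44e-05, n = 3 mice in each of 4 groups). All 3 pair-fed mice labelled knockout lay above all 3 pair-fed wild type mice, whereas the ethanol-fed groups overlapped.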

How the results depend on the processing

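The 47 ethanol-fed calls became 31 with total counts, 187 with DESeq2 and 148 in the fit over all 12 libraries, and 22 to 125 without 1 mouse. Median-of-ratios scaling, other filters on low counts and limma-voom with a spread per group kept the count within 1.5 times. Replicate numbers did not pair the mice, with same-number correlations of -0.17, -0.12 and -0.16 in ethanol-fed and -0.01, -0.02 and 0.01 in pair-fed mice, and 0 libraries were closest to their own number. The replicate block gave 35 calls in ethanol-fed mice, 564 in pair-fed mice and 1 in the interaction. The 481 pair-fed calls became 114 over all 12 libraries and 200 to 556 without 1 mouse. The interaction count of 1 became 15 with DESeq2 and ranged from 1 to 20 without 1 mouse. The difference of Sirt6 turned to -0.0341 with total counts and -0.0088 with limma-voom, and ranged from -0.1235 to 0.1268 without 1 mouse. That of Mt1 ranged from -0.6361 to 0.062 without 1 mouse, and was above 0 without wild type mouse 2 and without labelled knockout mouse 2 (0.0345). The list counts were added as alternatives after seeing the data. Of 375 results of called genes under the alternatives other than leave-outs, 333 kept their side of the threshold, 42 lost it and 0 changed direction, and the cause was not tested.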

Other observations

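Lcn2, which encodes the acute phase protein lipocalin 2, stood at 453 CPM in ethanol-fed labelled knockout mouse 3 and at 57.3 and 50.2 CPM in mice 1 and 2 of that group, against 70.9, 30.7 and 19.9 CPM in the wild type mice (log2 difference 2.19 ± 0.86, edgeR quasi-likelihood adjusted p = 0.582). Nr1d1, the circadian repressor REV-ERB alpha, stood at 45.5, 73.8 and 82.7 CPM in ethanol-fed wild type mice and 33.6, 21.2 and 22.2 CPM in the labelled knockout, without overlap (-1.40 ± 0.27, adjusted p = 0.118). Arntl, the clock activator BMAL1, stood at 5.38, 5.19 and 7.54 CPM against 7.56, 18.6 and 17.2 CPM (1.25 ± 0.34, adjusted p = 0.333). Of 22 clock genes and outputs edgeR called 0, with 1 higher and 3 lower at an unadjusted p under 0.05. DESeq2 called 1 higher and 2 lower. Over all genes the shares were 3.79% and 4.08% at that p, and 0.945% and 0.528% with DESeq2. The labels do not say at what time of day livers were taken. Cidec, a lipid droplet protein, ranged from 9.99 to 230 CPM among the wild type mice and from 32.1 to 71.2 CPM in the labelled knockout, so that the groups overlapped (-1.38 ± 0.84, adjusted p = 0.705). Cela1, a pancreatic-type elastase, stood at 4.61, 3.48 and 4.26 CPM against 10.4, 9.14 and 13.4 CPM, without overlap (1.41 ± 0.23, adjusted p = 0.0563).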
